A study of Caenorhabditis elegans with 6 samples.

Results

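The genes described here encode the machines that make ATP or spend it on pumping ions and lipids across membranes. They were chosen by a Gene Ontology process term of the deposited table, ATP biosynthetic process, together with every gene symbol starting with vha- or atp-. Of 17362 genes read by a single-gene probe set, 54 fit this rule, 33 by the term, 25 by symbol and 4 by both. The term, as the table used it, takes in many pumps that hydrolyse ATP, so the 54 genes fall into 10 of the mitochondrial ATP synthase, 20 of the vacuolar proton pump (V-ATPase) and 24 of other ATP-driven pumps. Each gene was read from its brightest single-gene probe set by the mean over the 6 arrays.

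Messenger RNA was measured on Affymetrix arrays from whole mixed-stage Caenorhabditis elegans embryos. There were 3 arrays of the mir-35-41(nDf50) mutant, labelled as strain VT2935 lacking nEx1187, and 3 arrays of wild type N2. nDf50 is a deletion of the mir-35 to mir-41 microRNA cluster, and nEx1187 is by its name an extrachromosomal array. Both groups grew on agar plates enriched with egg yolk, spent their last 24 hours at 25 °C after growth at 20 °C, and gave embryos through hypochlorite treatment. In whole embryos, fewer cells of a type and less RNA per cell cannot be told apart.

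ATP synthase sits in the inner mitochondrial membrane. Protons that the respiratory chain has pumped out flow back through its membrane part, turn a rotor, and drive ATP formation in the F1 head. The V-ATPase is built on the same rotary plan but runs the other way, as its V1 part hydrolyses ATP and its V0 part pumps protons into lysosomes, endosomes and secretory vesicles, or out of the cell. In worms the V-ATPase is known for its work in the excretory canal, the intestine, the epidermis and the acidification of endosomes and lysosomes. The P-type pumps, a separate superfamily, carry a phosphate during their cycle and move sodium, calcium, copper, polyamines or phospholipids.

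The arrays were unequal within the mutant group. Across all genes, mutant replicate 1 correlated with mutant replicates 2 and 3 at 0.989 and 0.991, against 0.998 between the other two, and wild type pairs lay between 0.989 and 0.995. These correlations are across genes and describe the arrays only. No label says that replicates came from separate cultures. The p-values set each difference only against the spread within the groups of these 6 samples, and that spread may be technical. Of 9 measured marker genes of embryos, such as the endoderm gene end-1 and the early zygotic gene pes-10, all lay above the brightest of 5 yeast control probe sets in both groups.

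None of the 54 genes passed the threshold in the mutant against wild type (limma, Benjamini-Hochberg adjusted p under 0.05 over all genes), where 3.67% of all genes did, 3.02% higher and 0.651% lower. At an unadjusted p under 0.05 there were 10 of the 54, or 18.5%, against 19.7% of all genes. Of these 10 members 9 were higher and 1 lower in the mutant by value, where 10% of all genes were higher and 9.68% lower. Mutant and wild type arrays did not overlap for 14 of the 54, or 25.9%, against 24.4% of all genes. In 11 of the 14 the mutant was higher and in 3 lower, against 11% and 13.4% of all genes. Both total shares, 18.5% and 25.9%, lay near those of all genes and are no result about the pump genes. By direction, more of these members were higher than lower. All genes were near even by unadjusted p, and without overlap more of them were lower than higher. The lean of the members was not tested.

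The median difference, mutant minus wild type, was 0.11 on the log2 scale for the 54 genes and -0.05 for all genes. A positive difference was found for 35 of the 54 (64.8%), against 39.3% of all genes. The positive side came mostly from the other ATP-driven pumps, where 20 of 24 differences were positive with a median of 0.17. Among the 30 genes of ATP synthase and V-ATPase 15 were positive and 15 negative, with a median of -0.00. After subtracting every array's median, the values were 0.05 for the 54 genes and -0.11 for all genes. These medians describe the lists and were not tested.

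**Figure D1:**
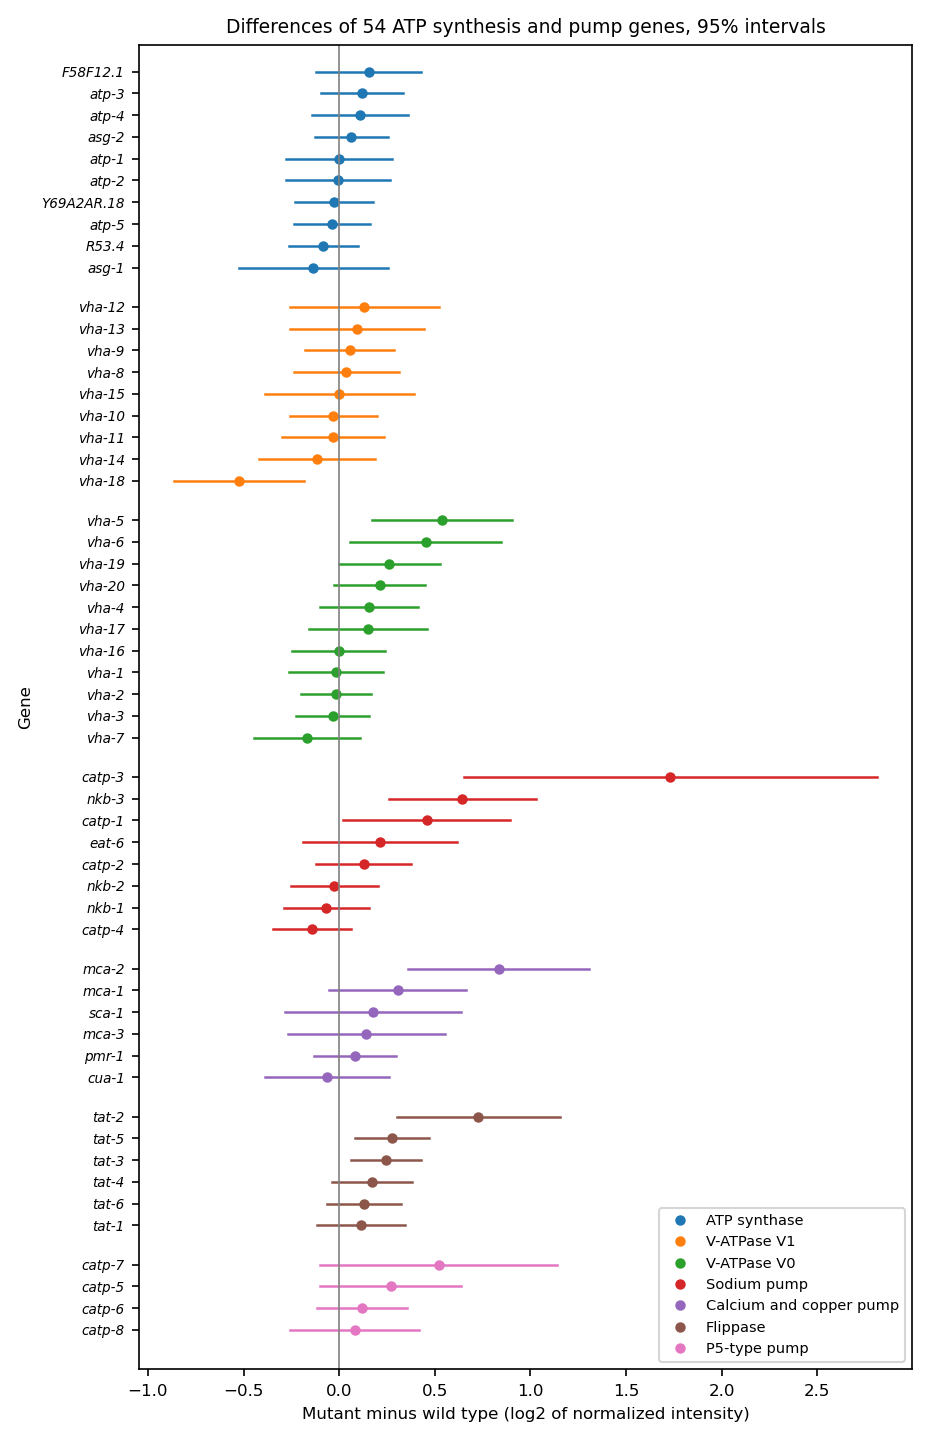
Differences between mutant and wild type for all 54 genes, as points with 95% intervals from limma on the log2 scale, grouped by machine and sorted within each group. The 10 ATP synthase genes lie between -0.13 and 0.15, while catp-3 stands at 1.73 with a wide interval.

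Each of the 10 ATP synthase genes that the rule chose, read by a single-gene probe set, differed little between the groups by value. A probe set that reads a pair of epsilon subunit genes together is not among them and is described below. All 10 differences lay between -0.13 and 0.15, and none had an unadjusted p under 0.05. The 95% intervals of all 10 stayed within 1.5-fold either way, where 66.8% of all genes had such an interval. Their outer bounds were -0.52 and 0.43.

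The catalytic beta subunit of the F1 head is encoded by atp-2. Its normalized intensities were 8798, 8911 and 8811 in the mutant, against 9966, 9186 and 7638 in wild type. The mutant arrays lay inside the wild type range, and the difference was -0.01 (SE 0.11, n = 3 against 3, 95% interval -0.28 to 0.26). For the alpha subunit gene atp-1 it was -0.00 (SE 0.12). The central stalk genes Y69A2AR.18 (gamma) and F58F12.1 (delta) gave -0.03 and 0.15.

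In the peripheral stalk, atp-3 (OSCP), atp-4 (F6) and atp-5 (d) had differences of 0.12, 0.11 and -0.04. Among the chosen genes of this enzyme, asg-1 and R53.4 of the membrane part had the lowest differences, while that of asg-2 was positive. R53.4, annotated as subunit f, read 6128, 6135 and 5969 in the mutant, against 6333, 6585 and 6386 in wild type. These groups did not overlap, but the difference of -0.08 (SE 0.08, limma adjusted p = 0.605) was small.

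The g subunit has 2 genes, asg-1 and asg-2. Intensities of asg-1 were 2707, 2504 and 2835 in the mutant, against 2411, 2822 and 3735 in wild type, with a difference of -0.13 (SE 0.16). Wild type replicate 3 was the high array, and without it the difference was 0.04. The other gene, asg-2, differed by 0.06.

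Another 5 ATP synthase genes lie outside the rule. They are asb-1 and asb-2 (b), hpo-18 (epsilon), R04F11.2 (e) and Y82E9BR.3 (c). None passed, and their differences ran from -0.11 for hpo-18 to 0.16 for asb-1, with a median of -0.00. The rule also reached 3 worm probe sets without a single gene, which were left out. One that names no gene differed by -0.17, and one shared by clec-181 and Y59H11AR.2 (catp-7) differed by -0.03, dimmer than the yeast controls. The third reads a pair of epsilon subunit genes together, R05D3.6 and ZC262.5. Its intensities were 870, 1508 and 1533 in the mutant, against 477, 739 and 828 in wild type. The groups did not overlap, and the difference was 0.93 (SE 0.29, limma adjusted p = 0.141 over all probe sets). This is larger by value than that of any ATP synthase gene with a probe set of its own.

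The V-ATPase genes had differences from -0.52 for vha-18 to 0.54 for vha-5, with a median of 0.02. No V-ATPase gene passed, and 3 of 20 (15%) had an unadjusted p under 0.05, below the 19.7% of all genes, vha-5 and vha-6 with higher and vha-18 with lower values in the mutant. Leaving out the genes of subunits a and H, the 95% intervals of the other 15 lay between -0.42 and 0.53, within 1.5-fold either way. All 20 intervals stayed within 2-fold, as did 91% of those of all genes.

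In V1, the part that hydrolyses ATP, the differences of the members other than those of subunit H ran from -0.12 to 0.13. The extremes were vha-14 (D, part of the rotor) and vha-12 (B, of the catalytic hexamer). Another V-ATPase gene outside the rule, spe-5, was not measured. Intensities of vha-14 were 2469, 3074 and 3233 in the mutant, against 2892, 3378 and 3206 in wild type, which overlapped. Without mutant replicate 1 its difference was 0.00.

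For vha-12 they were 5207, 6402 and 6732 in the mutant, against 6468, 5830 and 4519 in wild type. The difference was 0.13 (SE 0.16, limma adjusted p = 0.717), with a wide overlap. Its partner in the hexamer, vha-13 (A), gave 0.09. The stalk and regulatory subunit genes vha-8 (E), vha-9 (F), vha-10 (G) and vha-11 (C) gave 0.04, 0.06, -0.03 and -0.03.

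The V0 proton channel is a ring of c subunits. Worms encode it with vha-1, vha-2 and vha-3, of which vha-2 and vha-3 make the same protein, and with vha-4 for the related c double prime subunit. The ring genes were almost level. Intensities of vha-1 were 3027, 3378 and 3212 in the mutant, against 3201, 2949 and 3590 in wild type.

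Those of vha-2 were 4964, 5267 and 5135 in the mutant, against 5253, 5229 and 5058 in wild type. For vha-3 they were 495, 530 and 524 in the mutant, against 533, 508 and 544 in wild type. Differences were -0.02, -0.02 and -0.03 for vha-1, vha-2 and vha-3, with SEs of 0.10, 0.08 and 0.08. Each group overlapped the other for all 3 genes, and the sign of each turned under some alternatives.

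Intensities of vha-4 were 3459, 3663 and 3605 in the mutant, against 3071, 2922 and 3671 in wild type. Wild type replicate 3 exceeded every mutant array, and the difference was 0.16 (SE 0.11). In the gene table vha-1 lies next to vha-2 on chromosome III, and vha-11 next to vha-3 on chromosome IV. The differences were -0.02 and -0.02 in one neighbour pair, and -0.03 and -0.03 in the other.

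Subunit a anchors V0 in its membrane and decides where the pump is placed. Worms have 4 genes for it, vha-5, vha-6, vha-7 and unc-32. In worms vha-5 is known from the excretory canal and the epidermis, vha-6 from the apical membrane of the intestine, and unc-32 from neurons. The symbol of unc-32 keeps it outside the rule.

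Intensities of vha-5 were 445, 618 and 659 in the mutant, against 400, 380 and 389 in wild type. All mutant arrays were above all wild type arrays. The difference was 0.54, or 1.45-fold (SE 0.15, limma adjusted p = 0.117).

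For vha-6 they were 900, 1334 and 1303 in the mutant, against 925, 810 and 817 in wild type. Mutant replicates 2 and 3 were high, while mutant replicate 1 lay inside the wild type range. The difference was 0.45 (SE 0.17, limma adjusted p = 0.20).

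The other a genes differed less. Intensities of vha-7 were 506, 439 and 498 in the mutant, against 490, 616 and 518 in wild type, an overlap, with a difference of -0.17 (SE 0.12). For unc-32 the difference was 0.16 (SE 0.08, limma adjusted p = 0.334), and its mutant arrays were all above its wild type arrays.

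The differences of paralogs were set against each other on each array for 4 pairs. The log ratio of vha-5 to vha-7 was higher in the mutant by 0.70, with groups that did not overlap (exact permutation p = 0.10, 2-sided, the smallest that 3 against 3 arrays allow, adjusted 0.267). For vha-6 to vha-7 the log ratio was higher by 0.62 (exact permutation p = 0.20, adjusted 0.267). Between vha-5 and vha-6 it was higher by 0.09 (exact permutation p = 0.30, adjusted 0.30). No pair could pass in this design.

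**Figure D2:**
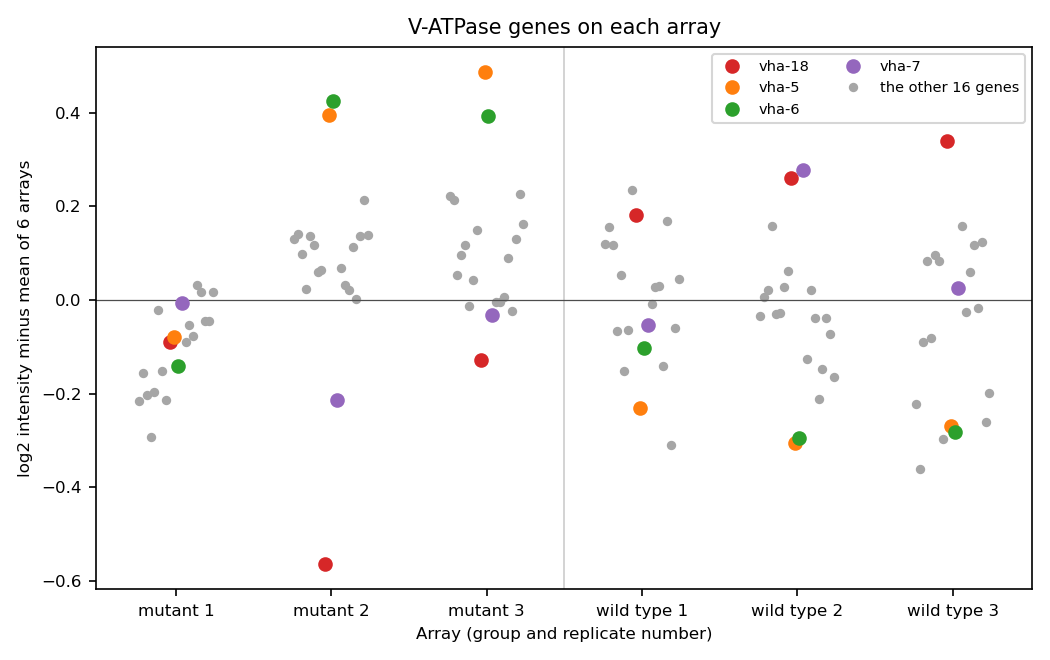
log2 intensity of each of the 20 V-ATPase genes on each array, relative to that gene's mean over the 6 arrays, with 4 genes of subunits a and H in colour. On mutant replicates 2 and 3 vha-5 and vha-6 are above the other V-ATPase genes, and vha-18 is high on all wild type arrays.

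Subunit H, which regulates the pump, has 2 genes. Intensities of vha-15 were 1612, 1953 and 2074 in the mutant, against 2198, 1952 and 1521 in wild type, with a difference of 0.00 (SE 0.16). The other gene, vha-18, read on a probe set of the shared kind, gave 210, 151 and 204 in the mutant, against 254, 268 and 283 in wild type. All mutant arrays were below all wild type arrays. Its difference of -0.52 (SE 0.14, limma adjusted p = 0.102) was the lowest of the 54. The log ratio of vha-15 to vha-18 was higher in the mutant by 0.52 (exact permutation p = 0.20, adjusted 0.267).

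The accessory subunits were slightly above wild type by value. Intensities of vha-19, which encodes the worm relative of mammalian Ac45, were 2709, 3239 and 3269 in the mutant, against 2681, 2655 and 2332 in wild type. These groups did not overlap, although mutant replicate 1 came close to the wild type arrays. The difference was 0.26 (SE 0.11, limma adjusted p = 0.256). For vha-20, the relative of the mammalian prorenin receptor, it was 0.21 (SE 0.10). The remaining V0 genes vha-16 (d) and vha-17 (e) gave -0.00 and 0.15.

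Mutant replicate 1 was the lowest mutant array for 17 of 20 V-ATPase genes (85%), for 16 of the 24 other pump genes (66.7%) and for 4 of 10 ATP synthase genes (40%), against 41.9% of all genes. Wild type replicate 1 was the highest wild type array for 11 of the 20 V-ATPase genes, against 37.1% of all genes. The median over these 20 genes, relative to the mean of the 6 arrays, was -0.08, 0.11 and 0.09 on mutant replicates 1 to 3, and 0.01, -0.03 and -0.02 on wild type replicates 1 to 3.

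The sodium pump exchanges sodium for potassium and needs an alpha and a beta subunit. Its main alpha gene eat-6 read 4733, 6257 and 6759 in the mutant, against 5545, 5430 and 4249 in wild type. Mutant replicate 1 lay between wild type arrays, and the difference was 0.22 (SE 0.17, limma adjusted p = 0.543). Its other probe sets gave 0.18 and -0.04, so they did not share a sign. The alpha-like gene catp-3 showed the largest difference of the 54. It read 102, 310 and 290 in the mutant, against 45.8, 87.4 and 62.2 in wild type.

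All mutant arrays of catp-3 were above all wild type arrays, with mutant replicate 1 far below the other mutant arrays. The difference was 1.73, or 3.32-fold (SE 0.45, limma adjusted p = 0.0952, 95% interval 0.65 to 2.81). A second probe set of the gene read below the wild type mean of the brightest yeast control on all wild type arrays, so its difference is not given.

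The alpha-like gene catp-1 read 317, 506 and 497 in the mutant, against 310, 321 and 310 in wild type. Only mutant replicates 2 and 3 were above the wild type arrays. The difference was 0.46 (SE 0.18, limma adjusted p = 0.236), and a second probe set gave 0.19. For catp-2 the difference was 0.13, on a probe set no brighter than the yeast controls.

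Intensities of catp-4 were 45.7, 44.5 and 47.4 in the mutant, against 54.2, 47.8 and 50.1 in wild type. The mutant arrays were the lower ones without overlap, but the difference of -0.14 (SE 0.09, limma adjusted p = 0.424) was small and the signal dim.

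Of the beta subunit genes, nkb-3 differed most. It read 650, 980 and 924 in the mutant, against 541, 511 and 559 in wild type. All mutant arrays were higher, and the difference was 0.64, or 1.56-fold (SE 0.16, limma adjusted p = 0.0863). Its second probe set gave 0.61. The other beta genes nkb-1 and nkb-2 had differences of -0.07 and -0.03, and nkb-2 was no brighter than the yeast controls.

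Calcium pumps clear calcium from the cytosol. Those of the plasma membrane are encoded by mca-1, mca-2 and mca-3, that of the endoplasmic reticulum by sca-1 and that of the Golgi by pmr-1. mca-2 read 452, 627 and 605 in the mutant, against 404, 283 and 264 in wild type. All mutant arrays were higher, and wild type replicate 1 was the closest to them.

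The difference of mca-2 was 0.83, or 1.78-fold (SE 0.20, limma adjusted p = 0.0757), the smallest adjusted p of the 54 genes. A second probe set read below the mean of the brightest yeast control in both groups, so its difference is not given. Differences of mca-1 and mca-3 were 0.31 and 0.14, and the copper pump gene cua-1 gave -0.06.

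Probe sets of sca-1 did not share a sign. The brightest gave 0.18 and the other 3 ran from -0.11 to 0.73, the last with mutant arrays at 1141, 1720 and 1736, against 1134, 971 and 675 in wild type. That probe set alone of the gene had groups that did not overlap. For pmr-1 the difference was 0.08.

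Flippases of the tat family move phospholipids to the inner leaflet of membranes. All 6 had positive differences, from 0.12 for tat-1 to 0.73 for tat-2, and in 5 of them the groups did not overlap, against 24.4% of all genes without overlap and 39.3% with a positive difference. One of these 5, tat-6, was no brighter than the yeast controls in either group. tat-2 read 214, 276 and 315 in the mutant, against 134, 164 and 186 in wild type. The difference was 0.73, or 1.66-fold (SE 0.18, limma adjusted p = 0.0818), on a probe set of the shared kind.

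The gene tat-5, known to control the shedding of vesicles from embryonic cells, read 1612, 1548 and 1706 in the mutant, against 1341, 1294 and 1380 in wild type. All mutant arrays were higher, mutant replicate 1 included, at a difference of 0.28 (SE 0.08, limma adjusted p = 0.127). For tat-3 the intensities were 391, 402 and 417 in the mutant, against 349, 337 and 335 in wild type. Its difference was 0.25 (SE 0.08, limma adjusted p = 0.145), again without overlap.

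The P5-type pumps are a further branch of the P-type family. All 4 had positive differences with arrays that overlapped between groups. catp-7 read 45.1, 82.7 and 93.8 in the mutant, against 47.99, 48.1 and 51.4 in wild type. Mutant replicate 1 was the lowest of all 6 arrays and mutant replicates 2 and 3 the highest. On mutant replicate 1 and in wild type the signal was dim. The brightest yeast control had a mean of 40.8 in the mutant and 42.9 in wild type. The difference was 0.52 (SE 0.26, limma adjusted p = 0.335), while catp-5, catp-6 and catp-8 gave 0.27, 0.12 and 0.08.

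**Figure D3:**
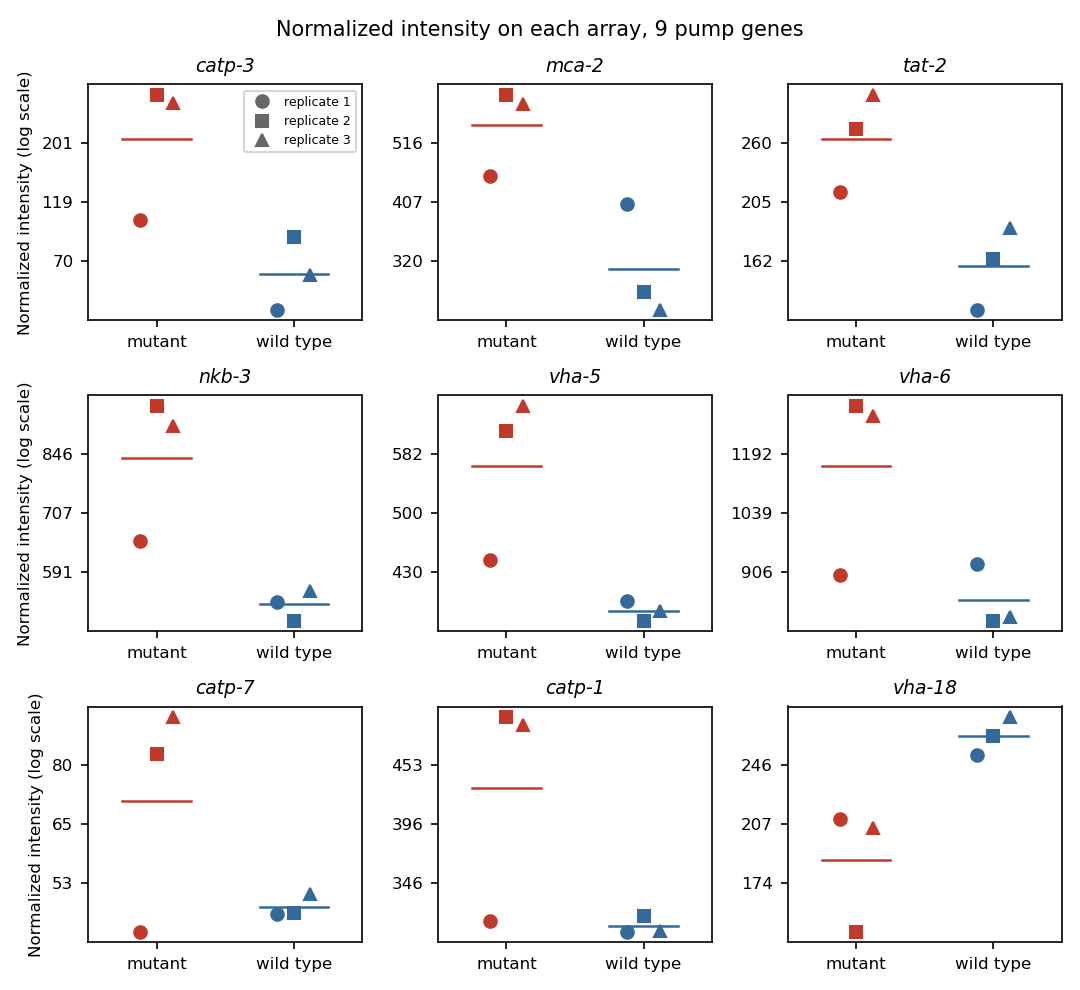
Normalized intensity on a log axis for 9 genes on the 3 mutant and 3 wild type arrays, with the marker shape giving the replicate number and lines the geometric mean of each group. Mutant replicate 1 sits lowest of the mutant arrays in every panel but that of vha-18, and for catp-3, mca-2, tat-2, nkb-3 and vha-5 it stays above the wild type arrays.

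Which members passed depended on mutant replicate 1. Without it, 8 of the 54 passed, all higher in the mutant, which is 14.8% against 11.3% of all genes in the same fit, with 7.16% of all genes higher and 4.17% lower. The 8 were catp-1, catp-3, catp-7, mca-2, nkb-3, tat-2, vha-5 and vha-6. Differences were then 2.25 for catp-3, 0.98 for mca-2, 0.88 for tat-2, 0.84 for catp-7, 0.83 for nkb-3, 0.71 for vha-5, 0.68 for catp-1 and 0.64 for vha-6.

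Their limma adjusted p-values in that fit ran from 0.00461 to 0.0277, with 2 arrays against 3. No ATP synthase gene was among them. Without wild type replicate 1, 1 member passed, mca-2, and with any other single array left out 0 members passed. Without both arrays numbered 1, 10 of 54 passed (18.5%, against 17.3% of all genes), and with array weights 13 of 54 (24.1%, against 20.3% of all genes). The weights that limma gave were 0.33, 1.35 and 3.75 for the mutant replicates and 0.48, 1.81 and 0.69 for those of wild type.

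**Figure D4:**
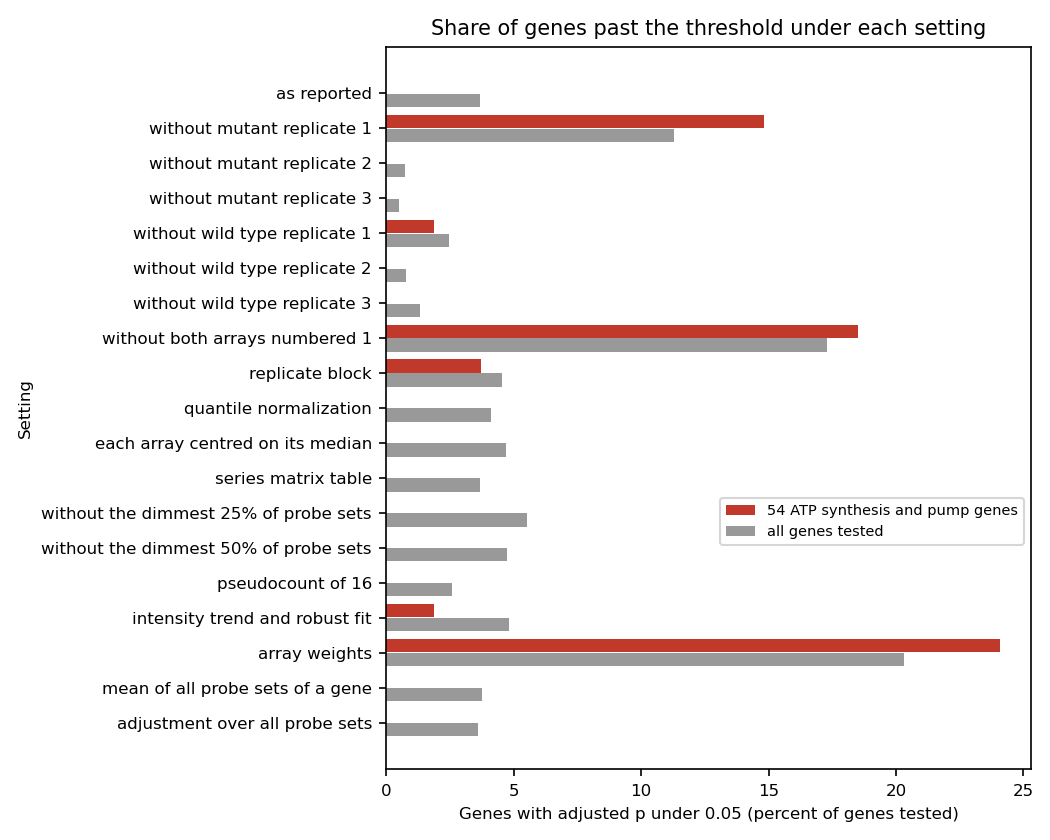
Share of genes past an adjusted p of 0.05 under each setting, for the 54 genes and for all genes tested. The share of the 54 is 0 as reported and follows that of all genes in the settings that lower the influence of mutant replicate 1.

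Several probe sets were present for 26 of the 54 genes. In 20 of these all probe sets had the same sign, and in 21 all others lay within 0.2 of the brightest on the log2 scale, dim probe sets included. None of the 88 probe sets of the 54 genes passed over all probe sets. The brightest probe set was of a kind that Affymetrix marks as shared between transcripts for 32 of the 54. In 3 genes, catp-2, nkb-2 and tat-6, it was no brighter than the yeast controls in either group. The genes lie on every chromosome, with 16 of them on chromosome IV, 9 on chromosome I, 8 each on chromosomes III and V, 7 on chromosome II and 6 on chromosome X.

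Genes that feed ATP synthase were close to wild type by their median. Of 41 measured nuclear genes of respiratory complexes I to IV and their assembly none passed, and the median difference was -0.01. In complex I, which takes electrons from NADH, the largest differences among 15 genes were -0.39 for nduf-2.2 and -0.20 for nduf-9, with a median of -0.06. Complex II genes, which link the citric acid cycle to the chain, had a median of 0.17 over 5, led by mev-1 at 0.27 and sdhd-1 at 0.27.

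In complex III with cytochrome c the largest of 8 differences were -0.54 for ucr-2.3 and -0.16 for cyc-1, and the median was 0.02. Complex IV and its assembly factors had a median of -0.02 over 13, with -0.49 for cox-11 and -0.21 for cox-15. Without mutant replicate 1, nduf-2.2, ucr-2.3 and cox-11 were lower in the mutant (limma adjusted p = 0.0275, 0.0305 and 0.0336). These were 3 of the 41 respiratory genes, where 4.17% of all genes were lower in that fit.

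No gene passed among the 6 that exchange ATP for ADP across the mitochondrial membrane or inhibit ATP synthase. Their median was 0.02, with -0.21 for mai-2, an inhibitor of ATP synthase, and -0.13 for the carrier gene ant-1.3. Lysosomes are acidified by the V-ATPase. Of 11 measured lysosomal genes none passed, with a median of 0.05, and the largest differences were 0.60 for ncr-1, a Niemann-Pick sterol transport gene, and -0.50 for laat-1, an amino acid exporter gene.

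**Figure D5:**
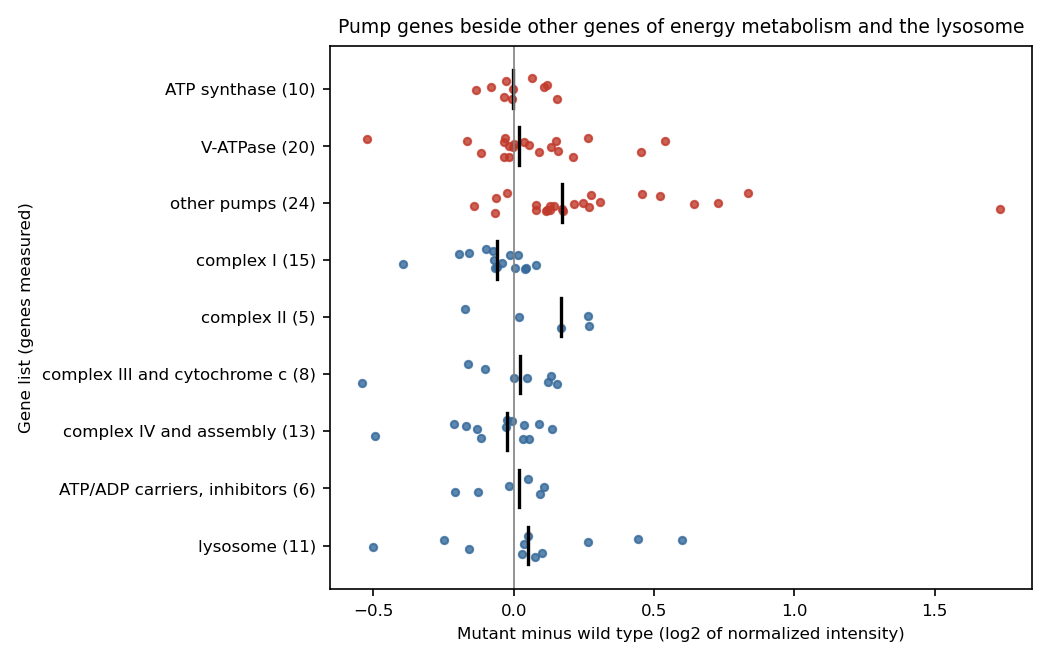
Differences between mutant and wild type on the log2 scale, 1 point per gene, with black bars at list medians. The ATP synthase genes and most respiratory chain genes lie near 0, while the other pumps have a median of 0.17 and hold the largest differences.

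Markers of stage and tissue moved with the arrays too. Medians of the 9 embryo markers, relative to the mean of the 6 arrays, were 0.11, -0.31 and -0.31 on mutant replicates 1 to 3, and 0.30, 0.16 and 0.09 on wild type replicates 1 to 3. Their median difference was -0.31, with 8 of 9 lower in the mutant by value, and none of the 9 passed. An unadjusted limma p under 0.05 was found for 5 of the 9, against 19.7% of all genes. The 1 higher marker, at 0.44, was among these 5. Groups did not overlap for it and for 4 lower markers, against 24.4% of all genes. Without mutant replicate 1 the median of the 9 was -0.51. In that fit 3 of the 9, end-1, pes-10 and pal-1, were lower past the threshold, against 4.17% of all genes. Summed intensities of the list were 5188 to 6327 in the mutant, against 6216 to 7068 in wild type. Thus mutant replicate 1 was the mutant array nearest to wild type in these markers. The same held for catp-1, catp-3, catp-7, mca-2, nkb-3, tat-2, vha-5 and vha-6. These genes were picked because they passed without that array. Their likeness to wild type on it thus follows largely from the choice and is no separate result.

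Muscle markers (5 measured) had medians of -0.35, 0.37 and 0.37 on the mutant replicates, and 0.16, -0.09 and -0.43 on those of wild type. By value 4 of the 5 were higher and 1 lower in the mutant, the lowest at -0.53, and none passed. Only the lower marker had an unadjusted limma p under 0.05, against 19.7% of all genes. It was also the only muscle marker whose groups did not overlap, against 24.4% of all genes. Germline markers (8 measured) had 0.23, -0.29 and -0.23 in the mutant, and 0.24, 0.12 and -0.03 in wild type. By value 7 of the 8 were lower and 1 higher in the mutant. The P granule gene pgl-3 had a difference of -0.70 (limma adjusted p = 0.00903), and pgl-1, another P granule gene, one of 0.70 (limma adjusted p = 0.112). Without mutant replicate 1, 3 germline markers were lower (pgl-3, nos-2 and pos-1) and 1 higher (pgl-1) past the threshold. Of all genes 4.17% were lower and 7.16% higher in that fit.

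Summed intensities were 2853 to 3401 in the mutant, against 2502 to 3282 in wild type, for 8 excretory canal markers, and 7970 to 10065 against 7265 to 9625 for 8 intestinal markers. Both ranges overlapped, and none of these markers passed. By value 6 excretory markers were higher and 2 lower in the mutant, the lowest at -0.29. Of the intestinal markers 5 were higher and 3 lower, the lowest at -0.57. Without mutant replicate 1, aqp-8 of the excretory and ifb-2 of the intestinal markers were higher past the threshold, and none of either list was lower past it. In that fit 7.16% of all genes were higher and 4.17% lower. Epidermal markers (5 measured) summed to 7798 to 9100 in the mutant and 9911 to 10538 in wild type, without overlap, and elt-3, a GATA factor gene, had a difference of -0.60 (limma adjusted p = 0.0291). Neuronal markers (6 measured) summed to 3222 to 4422 in the mutant and 3172 to 4150 in wild type. Of 7 genes for yolk proteins and an adult collagen only vit-1 passed, higher by 0.58 (limma adjusted p = 0.0426). This list was dim, and in each group 2 of the 7 were no brighter than the brightest yeast control. Its summed intensities were 382 to 424 in the mutant and 365 to 388 in wild type. What part stage and tissue had in the pump gene values was not tested.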

How the data were processed

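Arrays were grouped by the genotype and replicate in the sample labels. Some description fields speak of insect stages and were not used. The authors deposited normalized intensity values, 1 per probe set and array, on a linear scale. The tool named in the submitters' processing notes is Affymetrix Expression Console. The summarization method is not given in the sources used here. A log2 table that the authors also deposited equals log2 of these values within 5.66e-06.

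Of 22625 probe sets 77 controls were left out, leaving 22548, of which 20775 had 1 gene, 756 several and 1017 none. A WBcel235 gene table supplied current names and matched 16833 of 17362 genes. No filter or pseudocount was used. Mutant and wild type were compared on log2 values by lmFit followed by eBayes (limma 3.58.1, R 4.3.3), 2-sided, with adjustment over all genes. The steps were tested on simulated data. The common scale of the arrays hides changes in total RNA. Probe set levels were compared only to pick the brightest, to mark dim signals by the yeast controls, and in filters on dimness.

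Members and gene lists were chosen with earlier results of these data known. Values on every array are given for the 6 largest differences in each direction and for V-ATPase subunits with several genes. catp-1, tat-3, tat-5, atp-2, vha-12, eat-6, vha-19, a probe set of sca-1 and the epsilon probe set were singled out after their values were seen. Alternatives were the replicate block, left-out arrays, other scalings, filters, variance models and probe set rules. Deviations from group means correlated at 0.21, 0.01 and 0.14 between arrays of the same number. Between arrays of different numbers they ran from -0.35 to 0.33. No label ties the numbers to a day, so they were not taken as pairs.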

Additional observations from a re-analysis of the deposited data

Results flagged for a closer look

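The probe set that reads the ATP synthase epsilon genes R05D3.6 and ZC262.5 together was outside the comparison of single genes and had higher values in the mutant, with a log2 difference of 0.93 and an SE of 0.29 over 3 arrays each. Its limma adjusted p over all probe sets was 0.141. All mutant arrays were above all wild type arrays. The groups held too few arrays for a check of single outlying arrays.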

How the results depend on the processing

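Precision was limited by 3 arrays per group. The number of genes past the threshold over all genes was 638, and 87 to 1967 with 1 array left out. It was 3003 without both arrays numbered 1, 408 without the dimmest 50% of probe sets and 3531 with array weights. Members past the threshold with higher values numbered 0, and 0 to 8 with 1 array left out. They numbered 9 without both arrays numbered 1, 2 with the replicate block (catp-3 and tat-2), 1 with an intensity trend and robust fit (catp-3) and 12 with array weights. Members with lower values numbered 0, and 1 (vha-18) both without both arrays numbered 1 and with array weights. In the related gene lists 0 genes passed, 0 to 5 with 1 array left out, 7 without both arrays numbered 1 and 6 with array weights.

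The median of the members was 0.11, against 0.046 with each array centred on its median, 0.063 without wild type replicate 3 and 0.00030 for symbols starting with vha- or atp- alone. The median of the V-ATPase genes was 0.02, against 0.10 without both arrays numbered 1, and 0.093 without mutant replicate 1. Leaving out a wild type array gave 0.053, 0.032 and 0.0026 for replicates 1, 2 and 3. With array weights it was 0.076 and with quantile normalization 0.044. It turned to -0.013 and -0.0038 on leaving out mutant replicates 2 and 3, and to -0.046 with median centring. Of 25 members named with their arrays, 17 kept their sign under up to 18 settings each and 8 turned. With 1 array left out, asg-1 ran from -0.28 to 0.038, vha-14 from -0.19 to 0.00030, vha-1 from -0.082 to 0.060 and vha-2 from -0.037 to 0.0060. In the same settings vha-15 ran from -0.15 to 0.12, atp-2 from -0.11 to 0.078 and vha-12 from -0.015 to 0.24. Without both arrays numbered 1, vha-1, vha-2, vha-3 and atp-2 were at 0.018, 0.016, 0.0034 and 0.081. With quantile normalization they were at 0.026, 0.026, 0.0074 and 0.0027. With array weights vha-1 was at 0.051 and vha-3 at 0.0097. The mean of all probe sets put vha-3 at 0.0029, and median centring put vha-15 at -0.065. The cause of these turns was not tested.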
